A study of Mus musculus with 8 samples.

Results

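The question addressed here was how far the liver's response to N-ethyl-N-nitrosourea (ENU) depended on Dicer1 in hepatocytes. All 8 arrays of the series entered, 2 from each of 4 groups, and for each gene the ENU response of wild-type liver was subtracted from that of knockout liver. The knockout mice (KO) were Albumin-Cre;Dicer1loxP/loxP, in which Cre driven by the albumin promoter removes Dicer1 in hepatocytes. The wild-type mice (WT) were Dicer1loxP/loxP littermates without the transgene, so both genotypes carried the floxed alleles. All were labelled C57BL/6, female and 6 months old. The ENU groups received 1 intraperitoneal dose of 120 mg/kg in DMSO and the vehicle groups DMSO alone, at 2 ml/kg, and the series design gives liver collection at day 15. The labels do not give the hour of collection, the number of animals behind each array or whether RNA was pooled.

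Dicer1 encodes the RNase III enzyme that cuts microRNA precursors into mature microRNAs, which repress messenger RNAs. ENU is an alkylating agent that transfers ethyl groups to DNA bases and is a liver carcinogen and mutagen in mice. The liver is also the main site of cholesterol and fatty acid synthesis, of acute phase protein production and of a strong circadian programme, so the lists described below cover these functions beside DNA damage, proliferation and inflammation.

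Group levels are given in the order WT vehicle, WT ENU, KO vehicle, KO ENU unless a group is named. Levels are log2 signals relative to the 75th percentile of each array, averaged over arrays a and b. The response is ENU minus vehicle, and the difference in response is the KO response minus the WT response. Arrays a and b of a group differed no more than repeated spots of a probe on 1 array: the median standardised difference was 0.594 to 0.726 within groups and 11.9 to 28.4 between groups. They were therefore counted as 1 RNA sample per group, no difference has a p-value, and the array SE given with a value covers array noise only. A gene was called where its responses differed at least 2-fold, which is 1 log2 unit.

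A gene was measured when its probe was well above background on both arrays of at least 1 group, which held for 18156 genes. Of these, 14544 were well above background on all 8 arrays. The share of spots well above background ran from 54.7% to 69.3% per array and no spot was saturated. All 4 ENU arrays lay on 1 slide and all 4 vehicle arrays on another, with KO on positions 1 and 2 and WT on positions 3 and 4 of both, so a slide effect shared by the genotypes cancels in the difference and one that varies by position cannot be told apart from it. Dicer1 itself, by its brightest probe, had levels of 1.12, 0.42, 0.63 and 0.17, a difference in response of 0.24. Its second probe had levels of -1.86, -2.51, -4.32 and -4.02, a difference of 0.95, and which exons the probes cover was not determined here. All 25 mature hepatocyte secreted proteins measured, among them albumin, were well above background in every group. Of 6 Y-linked genes measured, 5 were well above background on all 8 arrays although the mice are labelled female, and none of the 6 differed 2-fold in response.

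Across the 18156 genes the median difference in response was -0.03, with an interquartile range of -0.36 to 0.28 and an SD of 0.70. The median array SE was 0.0712. The response of KO was at least 2-fold more positive for 789 genes (4.35%) and at least 2-fold more negative for 1173 genes (6.46%). The 4-fold counts were 157 (0.865%) and 243 (1.34%). Positive calls were 40.2% of all calls, and 53.4% when dim groups were raised to the lowest signal well above background. With any 1 array left out, 502 of the 789 and 817 of the 1173 stayed called. Both responses were correlated across genes with r = 0.503, or 0.578 among genes well above background on all arrays, where genes are not independent replicates and array noise and slide are shared.

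Among genes well above background on all arrays, 356 were called positive and 617 negative. The largest class of positive calls, 157 genes, was at least 2-fold lower after ENU in WT with a KO response under 2-fold. In a further 59, KO was at least 2-fold higher after ENU with WT under 2-fold. Negative calls comprised 226 genes at least 2-fold higher after ENU in WT with KO under 2-fold, and 151 at least 2-fold lower in KO with WT under 2-fold. Opposite responses of 2-fold or more in both genotypes occurred in 2 positive and 10 negative calls. Most of these genes therefore moved at least 2-fold in 1 genotype and less than that in the other.

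**Figure D1:**
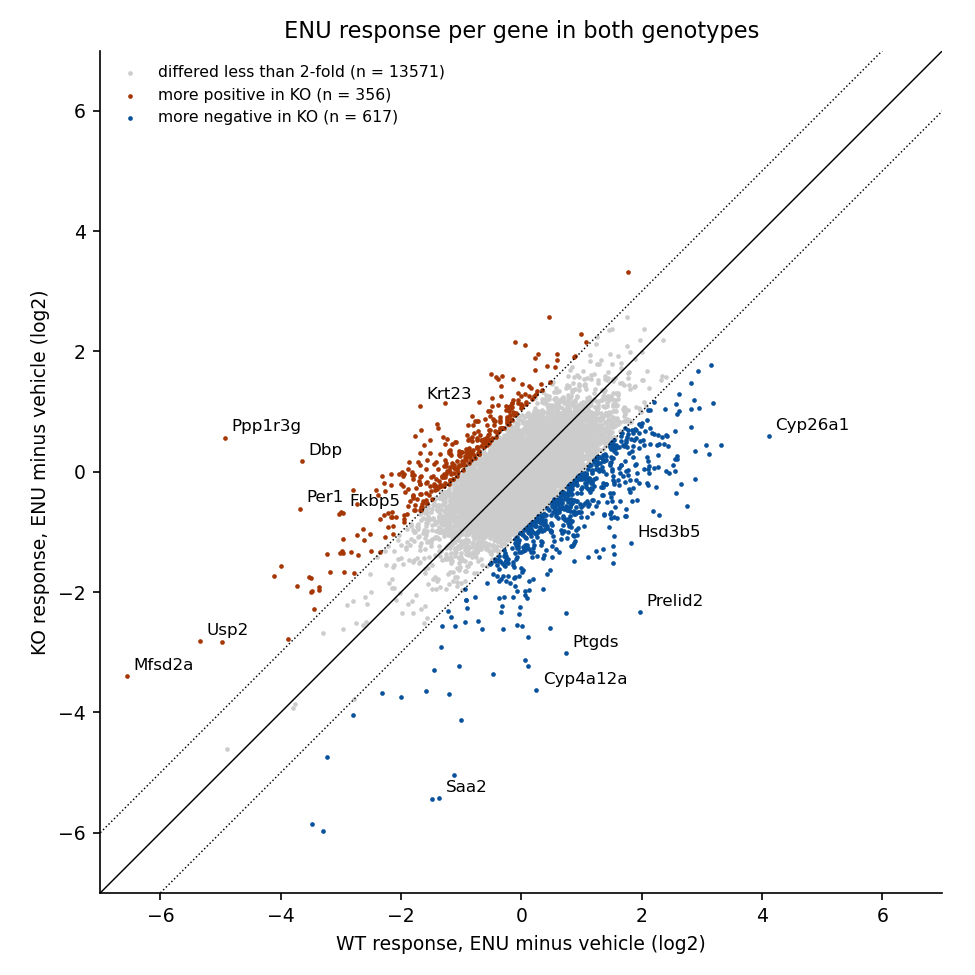
WT response (x axis) against KO response (y axis), both ENU minus vehicle in log2, for the 14544 genes well above background on all 8 arrays, where each point is 1 gene. The solid line marks equal responses and the dotted lines a 2-fold difference. Red points (356) lie above the band and blue points (617) below it. Ppp1r3g and Dbp lie far left near a KO response of 0, and Saa2 far down.

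Upstream sequences are shown for genes whose responses differed and whose promoter window held the motif of the regulator the pathway is named for. Sterol regulatory element-binding proteins (SREBPs) bind sterol regulatory elements and switch on cholesterol genes when membranes are low in sterol. The clock activators CLOCK and BMAL1 bind E-boxes, and the DBP, TEF and HLF factors bind D-boxes. Windows of 250 bases before to 50 after the start came from RefSeq, build GRCm38.p6, and were searched on both strands. Capitals mark the motif, which is the sterol element TCACCCCAC or its shorter core CACCCCA, the E-box CACGTG or the D-box TTATGTAA. The stretches lie upstream of the start and are written along the gene's strand.
Hmgcs1 (chr13:119690184-119690252, plus strand): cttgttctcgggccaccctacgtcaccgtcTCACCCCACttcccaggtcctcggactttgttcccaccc
Srebf2 (chr15:82147078-82147144, plus strand): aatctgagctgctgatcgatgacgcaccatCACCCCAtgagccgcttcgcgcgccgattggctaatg
Acat2 (chr17:12960870-12960936, minus strand): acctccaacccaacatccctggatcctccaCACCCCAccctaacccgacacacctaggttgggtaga
Per1 (chr11:69098753-69098818, plus strand): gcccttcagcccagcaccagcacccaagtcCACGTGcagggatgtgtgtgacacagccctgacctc
Per3 (chr4:151044786-151044900, minus strand): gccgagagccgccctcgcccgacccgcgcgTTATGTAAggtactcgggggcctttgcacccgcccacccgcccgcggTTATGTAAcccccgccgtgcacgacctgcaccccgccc

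Of 17 cholesterol synthesis genes with a RefSeq window, 1 held TCACCCCAC and 3 held CACCCCA, which lies inside the longer motif, against 0.695% and 9.48% of 11518 genes. Among 15 core clock genes with a window, 4 held CACGTG and 1 held TTATGTAA, against 11.1% and 0.764% of all genes. A match is a description of letters in the window and no evidence of binding in these livers.

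Cholesterol synthesis was the list with the lowest median difference of the 40 examined. Of 25 genes measured, 17 were called negative and none positive, and 24 lay below 0. The shares over all genes, for this and every list below, were 6.46% negative and 4.35% positive. The median difference was -1.25, against -0.03 over all genes. The median WT response was 1.49 and the median KO response -0.06. In WT, 16 of the 25 genes were at least 2-fold higher after ENU, as were 7.18% of all genes. In KO, 1 was at least 2-fold higher and 2 were at least 2-fold lower, against 4.34% and 5.41% of all genes.

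Hmgcs1, which makes the HMG-CoA that feeds the pathway, had the most negative difference of the list. Its 2 WT vehicle arrays read 3.33 and 3.29, the WT ENU arrays 5.95 and 5.97, the KO vehicle arrays 4.71 and 4.72 and the KO ENU arrays 4.53 and 4.51. WT was thus 6.27-fold higher after ENU and KO 1.15-fold lower, a difference of -2.85 (array SE 0.0229). KO stood 2.65-fold above WT on vehicle and 2.71-fold below it after ENU, so the order of the genotypes turned. Sqle, the squalene epoxidase that commits the pathway to sterols, had levels of 1.47, 3.71, 2.45 and 2.20, and a difference of -2.50. Idi1, which isomerises the isoprene unit, had a difference of -2.48 with a KO response of -0.74. Msmo1, a sterol methyl oxidase, and Mvd, the mevalonate decarboxylase, differed by -2.14 and -2.05, with KO responses of 0.06 and 0.05.

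Pmvk, Mvk and Fdft1, which phosphorylate mevalonate and build squalene, differed by -1.81, -1.61 and -1.57. Lss, which closes the sterol ring, differed by -1.65. The late enzymes Tm7sf2 and Ebp had WT responses of -0.07 and 0.01 and differences of -0.30 and -0.47. Dhcr7, the last step to cholesterol, differed by -1.55.

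The regulators Srebf2 and Insig1 had unlike responses, each lower in KO than in WT. Srebf2, which encodes the SREBP that drives the pathway, had a WT response of -0.06 and a KO response of -1.23, a difference of -1.18. Hsd17b7, an enzyme of the pathway, had the same shape with -0.10 and -1.35. Insig1, which holds SREBPs in the endoplasmic reticulum, had 1.64 and 0.67. The list's median lay between -1.49 and -1.24 under the processing alternatives and between -1.27 and -1.23 with each array left out.

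**Figure D2:**
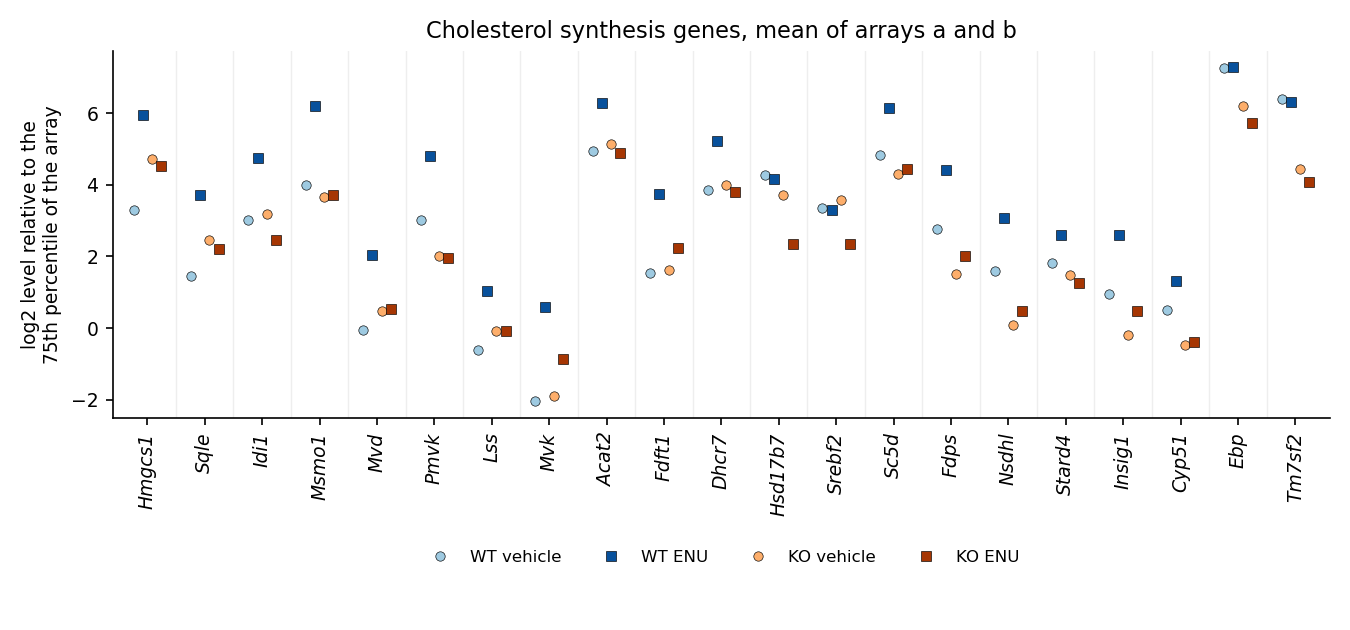
Levels of 21 of the 25 cholesterol synthesis genes in the 4 groups (log2 relative to the 75th percentile of the array, mean of arrays a and b), ordered by the difference in response from Hmgcs1 (-2.85) at the left to Tm7sf2 (-0.30) at the right. In genes at the left the dark blue WT ENU square stands clear of the light blue WT vehicle circle, and the KO ENU square lies close to or below the KO vehicle circle.

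Fatty acid synthesis went the same way in part. Of 22 genes measured, 9 were called negative and 1 positive, and the median difference was -0.86. Srebf1, the SREBP of fatty acid synthesis, had levels of 3.56, 6.18, 3.85 and 5.14. It was higher after ENU in both genotypes, by 2.62 in WT and 1.29 in KO, a difference of -1.33. Acly, which makes cytosolic acetyl-CoA, differed by -1.93 and Acss2, which makes it from acetate, by -1.85. Mid1ip1, an activator of acetyl-CoA carboxylase, differed by -2.14. Fasn, the fatty acid synthase, had responses of 1.52 and 0.74 and a difference of -0.78, and was not called.

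Fads1, Fads2 and Elovl5, which make polyunsaturated fatty acids, had KO responses of -1.22, -1.18 and -0.91 and WT responses of 0.07, -0.06 and 0.32. Acacb, the mitochondrial acetyl-CoA carboxylase, had -0.94 in WT and -2.50 in KO. Lpin1, a phosphatidate phosphatase that is also on the clock output list, was the 1 positive call, with -3.18 in WT and -1.67 in KO. Thrsp, Mlxipl and Elovl6, known for carbohydrate-driven lipogenesis, differed by 0.24, -0.06 and 0.35. Ppp1r3g, a subunit that targets protein phosphatase 1 to glycogen and drives glycogen synthesis after a meal, had the most positive difference of all genes well above background on every array. Its arrays read 2.66 and 2.66 in WT vehicle, -2.26 and -2.27 in WT ENU, -0.20 and -0.21 in KO vehicle and 0.37 and 0.37 in KO ENU. WT was 30.4-fold lower after ENU and KO 1.48-fold higher, a difference of 5.49 (array SE 0.0111). Over the whole list of gluconeogenesis and glycolysis, 1 of 27 genes was called positive and 3 negative, with a median of 0.02.

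The circadian clock runs on CLOCK and BMAL1 (Arntl), which switch on the Per, Cry and Rev-erb (Nr1d) genes whose products repress the activators, and on DBP, which relays the rhythm to metabolic genes. Of 18 core clock genes measured, 7 were called positive and 1 negative, with a median difference of 0.92, and 14 lay above 0. The median WT response was -1.36 and the median KO response -0.44. Most members therefore had the more negative response in WT.

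Dbp had arrays at 4.48 and 4.46 in WT vehicle, 0.82 and 0.83 in WT ENU, 2.50 and 2.49 in KO vehicle, and 2.69 and 2.66 in KO ENU. WT was 12.5-fold lower after ENU and KO 1.13-fold higher, a difference of 3.82 (array SE 0.0193). Per1 read 1.87 and 1.90 in WT vehicle, -1.82 and -1.77 in WT ENU, 1.49 and 1.52 in KO vehicle, and 0.86 and 0.93 in KO ENU, a difference of 3.06. On vehicle the genotypes lay close in Per1, and after ENU the KO arrays stood above the WT arrays. Per2 had responses of -3.50 and -1.997, so that it was lower after ENU in both genotypes and differed by 1.503. Per3 was not well above background in WT ENU, so its difference of 2.53 rests on a signal near background and its size is not determined. Nr1d2, the Rev-erb beta repressor, had -1.23 in WT and 0.55 in KO.

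The activator side was on the other side of 0. Arntl had responses of 1.42 and 0.76 and Npas2, a partner of BMAL1, 1.47 and 0.76, for differences of -0.66 and -0.71. Tef, Hlf and Cry2 differed by 0.91, 0.99 and 0.94, each just under the 2-fold line. Nr1d1 (Rev-erb alpha) was called by its brightest probe at 1.55, but its other 2 probes differed by -0.38 and -0.30, and the call was lost with all probes averaged, at 0.29, and with normexp background correction, at 0.57.

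Genes that the clock drives were mixed. Of 18 measured, 7 were called positive and 4 negative, with a median of 0.72. Usp2, a deubiquitinase that cycles strongly in liver, had responses of -5.34 in WT and -2.82 in KO, a difference of 2.52. Por, the electron donor of microsomal P450s, went from 7.89 to 4.92 in WT and from 6.59 to 5.48 in KO, a difference of 1.85. Alas1, the first enzyme of haem synthesis, differed by 1.49 with responses of -2.52 and -1.03. Nampt, which makes NAD, and Noct, a rhythmically expressed phosphatase, differed by 1.60 and 1.41. Cirbp, an RNA-binding protein induced by cold, was higher after ENU in both genotypes, with responses of 2.04 and 2.38. Among negative calls, Avpr1a, a vasopressin receptor, had responses of 2.12 and 0.09, and Leap2, a liver peptide hormone, had 1.17 and -0.29. The other 2 were Mtnr1a, a melatonin receptor, at -1.68, and Elovl3, given below.

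**Figure D3:**
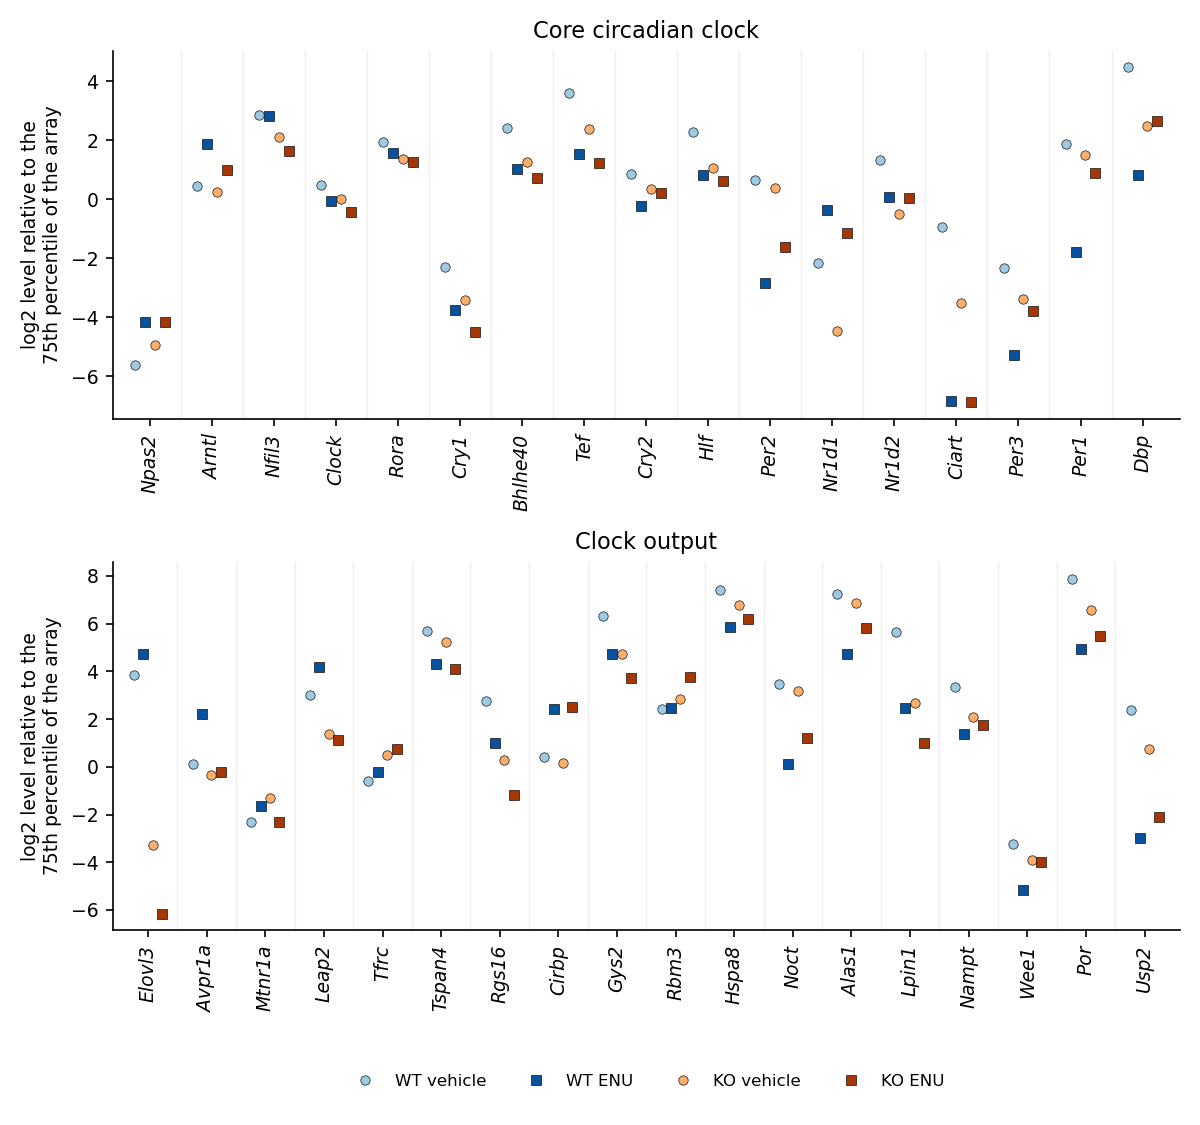
Levels of 17 of the 18 core clock genes (top) and 18 clock output genes (bottom) in the 4 groups (log2 relative to the 75th percentile of the array, mean of arrays a and b), ordered by the difference in response from lowest to highest. At the right of the top panel the WT ENU square of Dbp (0.83) and Per1 (-1.79) lies below the other 3 groups.

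Other genes at the positive end included a hormone receptor chaperone and a fasting-induced transporter. Fkbp5, a chaperone of the glucocorticoid receptor and its target, read 2.17 and 2.14 in WT vehicle, -0.80 and -0.83 in WT ENU, 0.82 and 0.84 in KO vehicle, and 0.12 and 0.18 in KO ENU, a difference of 2.29. Mfsd2a, a lysophospholipid transporter induced by fasting, was lower after ENU in both genotypes, with responses of -6.56 and -3.40. Jun, a subunit of AP-1, had responses of -1.87 and 0.16 and a difference of 2.02. Egr1, another immediate early gene, had 1.74 and 0.49 and a difference of -1.24. Of 22 immediate early genes, these were the only calls, 1 in each direction (4.55%), with a median of 0.20. The shares over all genes were 4.35% positive and 6.46% negative. Krt23, a keratin, went from 1.06 to -0.63 in WT and from 3.49 to 4.59 in KO, a difference of 2.79.

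Heat shock and chaperone genes had a median difference of 0.51, and 4 of 25 were called positive and 1 negative. In WT, 11 of the 25 were at least 2-fold lower after ENU and in KO 5, against 5.49% and 5.41% of all genes. Herpud1, Dnajb9 and Creld2, which serve protein quality control in the endoplasmic reticulum, differed by 1.69, 1.60 and 1.23, and Hspb1, a small heat shock protein, by 1.61. Dnajb9 had levels of 2.89, 1.74, 1.82 and 2.28. The negative call was Hspa1a, the inducible Hsp70, lower after ENU in both genotypes, with responses of -2.31 and -3.68.

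Fatty acid oxidation, the programme of the nuclear receptor PPAR alpha, was lower after ENU in both genotypes. The median response was -1.40 in WT and -1.30 in KO, and the median difference 0.08, with 5 of 29 genes called positive and 1 negative. Vnn1, a pantetheinase, read 2.42 and 2.40, then 0.25 and 0.23 in the WT groups, and 2.63, 2.67, 2.63 and 2.60 in KO, so that the WT arrays moved and the KO arrays did not separate, and it differed by 2.14. Acot1, an acyl-CoA thioesterase, and Angptl4, an inhibitor of lipoprotein lipase, differed by 1.73 and 1.56. Acot3, another thioesterase that is also on the female-predominant list, was dim in WT ENU and at least 15.1-fold different in response. Cyp4a14 differed by 1.09 and fell under the line with quantile normalization, at 0.84. The negative call, Fgf21, a fasting hormone, differed by -1.52 but by -0.36 without WT ENU replicate a, by -2.69 without replicate b and by -0.79 with normexp.

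Acute phase proteins are secreted by hepatocytes under interleukin-6 and interleukin-1, the serum amyloid A genes most strongly. Of 29 measured, 9 were called negative and 4 positive, and the median difference was -0.24. Saa2 read 8.02 and 8.04 in WT vehicle, 6.64 and 6.70 in WT ENU, 8.70 and 8.62 in KO vehicle and 3.23 on both KO ENU arrays. Its response was -1.36 in WT and -5.43 in KO, a difference of -4.07 (array SE 0.0465). Saa1 and Saa3 differed by -3.95 and -3.92. The KO ENU arrays stood apart below the other 3 groups in all 3 genes. Saa1 and Saa2 are near-identical copies whose probes may share signal.

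KO ENU was also the lowest group for the orosomucoids and pentraxins named here. Orm2 had a WT response of -0.08 and a KO response of -2.55, and Orm1 and Orm3 differed by -1.94 and -2.48. Apcs, serum amyloid P, went from 3.99 to 4.86 in WT and from 3.43 to 2.25 in KO, a difference of -2.05. Crp differed by -1.08 and Lrg1, a leucine-rich glycoprotein, by -1.12. Haptoglobin and the metallothioneins Mt1 and Mt2 did not join them, with differences of -0.24, -0.11 and -0.13. Both metallothioneins were lower after ENU in each genotype, with responses between -3.92 and -3.76. Hamp, which encodes the iron hormone hepcidin, was on the other side, with levels of 7.81, 6.00, 7.31 and 7.31 and a difference of 1.81. So were Il1r1, the interleukin-1 receptor, at 1.99 and Cebpd, a transcription factor of the acute phase, at 1.89, both with KO responses between -0.39 and -0.07. Hmox1, the haem oxygenase on the antioxidant list, had responses of -1.58 and -3.65, and of the 24 antioxidant genes it and Gsta1 were the calls, both negative.

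Many liver genes differ between the sexes through the rhythm of growth hormone and the factor STAT5. Of 20 male-predominant genes measured, 8 were called negative and none positive, with a median difference of -0.86. Cyp4a12a, a male-predominant fatty acid hydroxylase, read 6.91 and 6.88 in WT vehicle, 7.13 and 7.15 in WT ENU, 4.06 and 4.07 in KO vehicle, and 0.45 and 0.43 in KO ENU. WT was 1.19-fold higher after ENU and KO 12.4-fold lower, a difference of -3.88, and its other probe differed by -2.51. Hsd3b5, a steroid dehydrogenase, moved oppositely, by 1.82 in WT and -1.19 in KO. Mup1, a major urinary protein of a family of near-identical copies, had responses of -0.07 and -1.42, and C6 and Nudt7 differed by -1.32 and -1.30. Elovl3, a fatty acid elongase, was dim in KO ENU, and its difference was at least 7.63-fold in the negative direction.

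Female-predominant genes went the other way, with 9 of 19 called positive, none negative and a median of 0.95. Fmo2, a flavin monooxygenase, read 2.16 and 2.17 in WT vehicle, -0.78 and -0.87 in WT ENU, 2.62 on both KO vehicle arrays, and 1.96 and 1.95 in KO ENU, a difference of 2.33. Cyp2b13 and Cyp2b9 had responses of -1.52 and -1.10 in WT and of 0.52 and 0.49 in KO, for differences of 2.04 and 1.60. Cyp2b10 differed by 1.40, by 0.96 with normexp and by 2.15 with all its probes averaged. Cyp2a4 was lower after ENU in both genotypes, with responses of -2.13 and -1.04. Hao2, Abcd2 and Prom1 were called but were dim in WT, so their size is not determined. Members of the Cyp2a, Cyp2b and Cyp4a families share sequence and their probes may cross-hybridise. No male-predominant promoter of 15 with a RefSeq window held the STAT5 pattern TTCNNNGAA, against 8.42% of all genes.

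**Figure D4:**
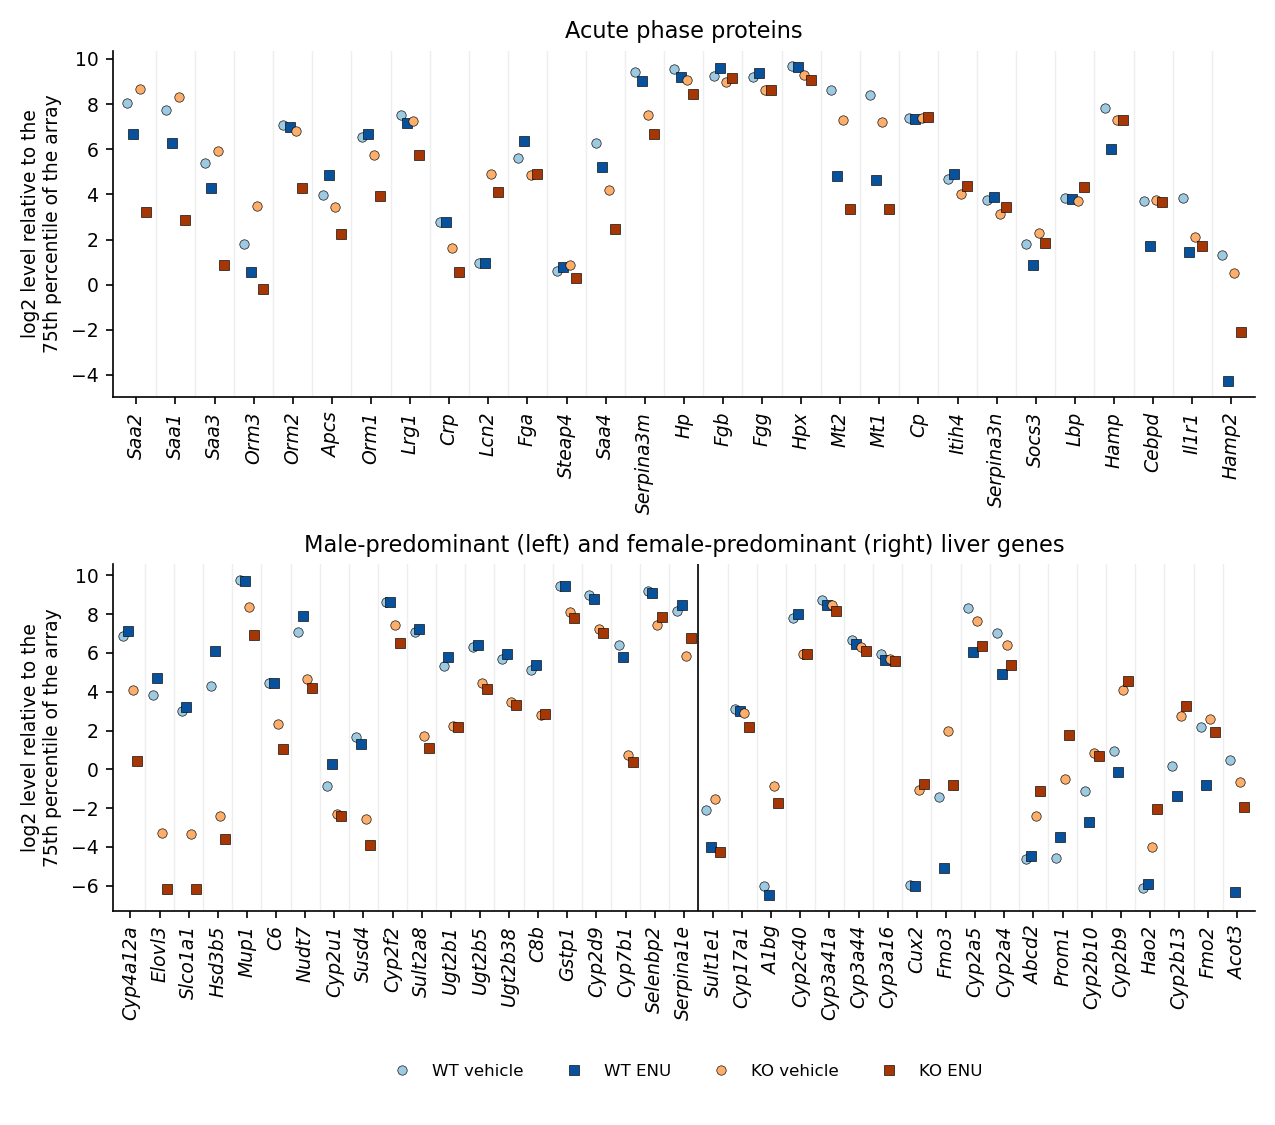
Levels of 29 acute phase proteins (top) and of 20 male-predominant and 19 female-predominant liver genes (bottom, split by the vertical line) in the 4 groups (log2 relative to the 75th percentile of the array, mean of arrays a and b), each ordered by the difference in response. Saa1, Saa2 and Saa3 in KO ENU, between 0.87 and 3.23, lie below the other 3 groups.

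Secreted proteins of mature hepatocytes had a median of 0.06 and 1 call in 25, the apolipoprotein Apoc3 at -1.02. Of 31 drug-metabolizing P450 genes, 6 were called positive and 2 negative, several of them on the lists above, with a median of -0.0029. Cyp1a2, a target of the aryl hydrocarbon receptor, had 0.16 in WT and 1.39 in KO. Periportal genes had 4 negative calls in 21 and a median of -0.48. Among them, Apoa4 had responses of -1.04 and -3.24, Pigr -0.25 and -1.82, Hal 0.91 and -0.58, and Arg1, the arginase of the urea cycle, -0.37 and -1.61. Pericentral genes had 4 negative calls and 1 positive in 20, with a median of -0.05. Oat, an ornithine aminotransferase, differed by -1.45, and Lgr5, a Wnt target, had 1.22 and -0.12. Slc1a4, an amino acid transporter, differed by -1.91. Of 21 bile acid genes, 1 was called positive (4.76%) and 3 negative (14.3%), against 4.35% and 6.46% of all genes, with a median of 0.11. Cyp8b1, which sets the cholic acid share, had responses of -0.70 and 1.17 and a difference of 1.87, and Hsd3b7, a bile acid synthesis enzyme, differed by -1.10.

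Cyp26a1, which degrades retinoic acid and is its target, had the most positive WT response among the 15 most negative differences well above background on all arrays. It read 0.30 and 0.28 in WT vehicle, 4.43 and 4.38 in WT ENU, -0.13 and -0.22 in KO vehicle, and 0.49 and 0.36 in KO ENU, a difference of -3.52. Slc41a2, a magnesium transporter, also moved in WT, from 0.46 and 0.45 to 3.20 and 3.23, with a KO response of -0.56. Ptgds, a prostaglandin D synthase, moved in KO, with responses of 0.75 and -3.01. Prelid2 read -0.98 and -0.99 in WT vehicle, 1.01 and 0.96 in WT ENU, 0.31 and 0.41 in KO vehicle, and -1.94 and -1.99 in KO ENU. That gives -4.30, the most negative difference among genes well above background on all arrays. Syt10, a synaptotagmin, and Nat8f5, an acetyltransferase, had WT responses of 0.11 and 0.75 and KO responses of -3.24 and -2.35. Lncbate1 differed by -3.07, or by -1.84 with normexp, and a probe without a gene name, NAP102507-1, by -3.20. At the positive end Rcc1, a nucleotide exchange factor for Ran, and Cgref1 had WT responses of -2.80 and -3.99 and KO responses of -0.31 and -1.57, with Cgref1 at 1.51 under normexp. Transcript NM_001012326 and 6030422H21Rik differed by 2.38 and 2.33. On mm7 the 6030422H21Rik probe lies at chr17:26608951-26609010 and the Fkbp5 probe at chr17:26624510-26624569, so these 2 may not be separate results. Values for 2 of the extremes well above background on all arrays moved over 1.5 times with 1 array: Mmrn1 differed by 2.37 but by 0.84 without WT vehicle replicate a and 3.90 without replicate b, and Rab5b by 2.36 but by 0.15 and 4.58. The other Rab5b probes differed by 0.32 and -0.02, and its call was lost with all probes averaged, at 0.89.

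Some genes passed from dim to bright in 1 group, and their differences are bounds set against the lowest signal well above background. Padi4, a peptidylarginine deiminase of myeloid cells, was dim in WT vehicle. Its other groups stood at -1.18, -0.80 and -2.35, and its responses were at least 23.0-fold different in the negative direction. Nfe2, a transcription factor of blood progenitors, was at least 5.48-fold different in the same direction. Pip is given no bound, since its WT ENU arrays read 0.02 and -4.08 and its difference of -5.42 was -3.37 without WT ENU replicate a and -7.46 without replicate b. AK043081 and Zfp941 followed with at least 4.52-fold and 4.04-fold. In the positive direction, Camk2b, Cilp and Dio3os were at least 6.64-fold, 6.54-fold and 5.68-fold different. For 4930597L12Rik no bound is given either, since its KO ENU arrays read -3.089 and -1.215. Its difference of 4.09 lay between 3.16 and 5.03 with each array left out. The unnamed probe A_52_P1156957 was at least 24.1-fold different. On mm7 it lies at chr12:82056103-82056162 and the Acot3 probe at chr12:82054675-82054734, so these 2 may not be separate results. Dio3os, a transcript of the Dlk1-Dio3 imprinted domain, was dim in WT ENU and had a KO response of 1.27. With normexp, whose offset raises low signals, the 6 positive values lay between 1.15 for Camk2b and 2.83 for A_52_P1156957. The 6 negative values lay between -2.85 for Padi4 and -0.99 for Zfp941, whose call was lost.

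Genes of cell division had positive median responses in both genotypes. For 32 genes of G2 and mitosis, the median response was 1.51 in WT and 1.11 in KO. The median difference was -0.54, with 5 called negative and 2 positive, but with normexp the median was 0.47, so no direction is given for the list. Only 12 of the 32 were well above background on all arrays, with a median of -0.72 and 2 negative calls, Cdc20 and Mki67. Cdc20, the activator of the anaphase-promoting complex, had levels of -2.52, 0.36, 1.96 and 3.16, and a difference of -1.68, or -0.88 with normexp. Mki67, the proliferation antigen, had -1.35, 0.06, 2.38 and 2.64, and a difference of -1.15, or -0.85 with normexp. In both genes the WT ENU level stayed below the KO vehicle level.

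Replication genes had a median of -0.29, with 5 negative calls and 1 positive in 32. Mcm2, Mcm5 and Mcm6, subunits of the replicative helicase, differed by -1.46, -1.44 and -1.35, and with normexp Mcm2 and Mcm5 were at -0.68 and -0.70. Tk1, the thymidine kinase, was the positive call at 1.27. E2f8 was called at -1.46 by its brightest probe, while its second probe differed by 1.36. Of 25 G2 and mitosis genes with a RefSeq window, 17 held the cell cycle element TTTGAA, against 15.2% of all genes.

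Of 24 genes of alkylation and base excision repair, which mend the lesions ENU makes, none was called, and the median difference was -0.12. Over all genes, 4.35% were called positive and 6.46% negative. Mgmt, which removes alkyl groups from guanine, differed by -0.84 with responses of 0.35 and -0.49. Of 32 p53 targets, 4 were called positive and 5 negative, with a median of -0.11, or 0.10 with dim groups at the floor. Cdkn1a, the p21 inhibitor of cyclin-dependent kinases, had levels of 3.08, 2.00, 2.59 and 2.77 and a difference of 1.25. Sesn2 at 1.33, Plk3 at 1.09 and Trp53inp1 at 1.06 were the other positive calls, with Sesn2 at 0.87 over all its probes. Among the negative calls were Bax, Bbc3 (PUMA) and Pmaip1 (NOXA), which promote cell death, at -1.47, -1.34 and -1.11. The list was not split by function, so no contrast of functions is drawn. Bax had responses of 0.32 and -1.14. Phlda3, a repressor of Akt, differed by -1.17, or -0.93 with normexp.

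The integrated stress response, which ATF4 drives, had 8 negative and 3 positive calls in 22 and a median of -0.32. Asns, asparagine synthetase, went from 0.22 to 2.26 in WT and from 3.10 to 3.54 in KO, a difference of -1.59. Atf5 and Chac1 had KO responses of -1.63 and -1.76 with WT responses of 0.03 and -0.11. Mthfd2, a mitochondrial folate enzyme, differed by -1.503, or -0.79 with normexp. Gdf15, a secreted stress hormone, and Cebpb were positive, at 1.26 and 1.22. Fgf21 and Sesn2 stand on this list too.

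Interferon-induced genes had 4 negative calls in 31, none positive, and a median of -0.36. In WT 15 of the 31 were at least 2-fold higher after ENU and in KO 6, against 7.18% and 4.34% of all genes. Isg15, a ubiquitin-like modifier, read -0.04 and -0.11 in WT vehicle, 2.47 and 2.56 in WT ENU, 1.83 and 1.87 in KO vehicle, and 2.13 and 2.09 in KO ENU, a difference of -2.33. Gbp6, a guanylate-binding protein, Oasl1 and Psmb9, an immunoproteasome subunit, differed by -1.78, -1.66 and -1.22. In Isg15, WT ENU and both KO groups lay between 1.85 and 2.52, and WT vehicle lay below them at -0.07.

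Chemokines followed in part, with 5 negative and 3 positive calls in 28 and a median of -0.17 that was 0.06 under normexp. Ccl2, which recruits monocytes and is among reported miR-122 targets, had levels of -2.44, -0.31, 3.20 and 3.17 and a difference of -2.16. Cxcl14 and Cxcl1 differed by -2.39 and -1.43. MHC class II genes had a median WT response of 1.01, 2 negative calls in 10 and a median difference of -0.19, or 0.09 under normexp. H2-Aa, a class II alpha chain, was higher after ENU in both genotypes, by 1.61 and 1.92, while H2-Eb1, a beta chain, had 0.10 in WT and -2.75 in KO.

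Extracellular matrix genes had 6 negative and 4 positive calls in 34 and a median of -0.38, or -0.07 with normexp. Col15a1, Sparc, Eln, Col4a2 and Col4a1 differed by -1.89, -1.32, -1.27, -1.06 and -1.04, with WT responses between 0.31 and 1.73. Col15a1 and Eln were at -0.81 and -0.82 with normexp, and Sparc at -0.90 and Col4a2 at -0.71 with all probes averaged. Ccn2, a target of YAP and TGF beta, was the positive call well above background throughout, with -1.89 in WT and -0.28 in KO.

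Markers of other liver cells were set beside these lists, since in bulk tissue a change in cell number and one in RNA per cell cannot be told apart. Over all genes, 4.35% were called positive and 6.46% negative. The summed level of 20 macrophage markers, in multiples of the array's 75th percentile, was 96.4 to 96.9 and 156 to 159 in the WT groups, and 234 to 235 and 400 to 406 in the KO groups, vehicle first. None was called positive and 2 were called negative, Cd14 at -1.43 and Cx3cr1, dim in WT vehicle, and the median difference was -0.10. Markers of T and NK cells summed to 4.99 to 5.04, 7.81 to 7.91, 10.3 to 10.46 and 18.0 to 18.1, with 1 of 18 called, Cd8a, negative. None of 14 B and plasma cell markers was called. Their summed levels were 21.3 to 21.7, 26.0 to 26.2, 27.6 to 28.0 and 30.6 to 30.7. The neutrophil list had 3 positive calls in 16 and 1 negative. Of its members, 8 lay above 0 and 8 below, with a median of 0.065. Ctsg and Mpo, granule enzymes of myeloid progenitors, were at 1.92 and 1.55, and Prtn3 and Lcn2 at -0.46 and -0.81. The list summed to 7.06 to 7.15, 9.75 to 9.93, 69.2 to 69.4 and 70.6 to 71.8 in the same order.

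Of 16 erythroid markers listed, 8 were measured, with 2 called positive, none negative and a median of 0.26. They summed to 483 to 486, 314 to 318, 149.8 to 150.3 and 193 to 209.6. The calls were the globin genes Hba-a1 and Hbb-bt, at 1.32 and 1.11. Of the 8 markers 6 lay above 0, and Alas2 and Car1 lay below it at -0.47 and -0.84. No endothelial marker of 18 was called, with a median of -0.27. Their summed level was 99.4 to 99.96, 108 to 110, 89.96 to 91.7 and 80.3 to 82.4 in the same order. Stellate markers had 1 positive call in 16, Ecm1 at 1.22 (0.79 by its second probe), with sums of 123 to 125, 130 to 131, 121, and 178 to 181. Cholangiocyte and progenitor markers had 2 positive calls and 1 negative in 14, Krt7 at -1.40, with sums of 124 to 126, 275 to 280, 382 to 386 and 549 to 574. The part of these cells in the inflammatory, matrix and division results was not tested.

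Lists close to microRNA control were near the middle. Reported miR-122 targets are messages repressed by the most abundant hepatocyte microRNA. Of 24, 2 were called positive (8.33%) and 1 negative (4.17%), against 4.35% and 6.46% of all genes, with a median of 0.19. Cers6, a ceramide synthase, differed by 1.15 and P4ha1, a collagen hydroxylase, by 1.12, or 0.78 with quantile normalization. Imprinted genes had 1 positive and 3 negative calls in 27, with Cdkn1c, a cyclin-dependent kinase inhibitor, at 1.62 and Mest at -1.76. Fetal and oncofetal genes had 3 positive and 4 negative in 26, with Plagl1 at -1.38, Igf2bp2 at -1.34, or -0.55 with normexp, and Dlk1 at 0.86. The metallothionein, iron and zinc list had 3 calls in each direction in 20, among them Ftl1, the ferritin light chain, at -1.36 and Slc39a4, a zinc importer, at 1.08. Bmp6, an inducer of hepcidin, differed by -1.17, or -0.83 with normexp, and Slc30a10, a manganese exporter, by -1.42, while its second probe was at 0.10.

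Housekeeping lists gave the level of agreement between the genotypes. None of 32 cytosolic ribosomal protein genes was called, with a range of -0.47 to 0.80 and a median of 0.13. None of 30 respiratory chain genes was called, with a range of -0.49 to 0.75 and a median of -0.03. Of the 40 lists, cholesterol synthesis, male-predominant genes and fatty acid synthesis had the lowest medians, and female-predominant genes, the core clock and clock output the highest. These lists were chosen with earlier results of these data known, and some of them share members.

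**Figure D5:**
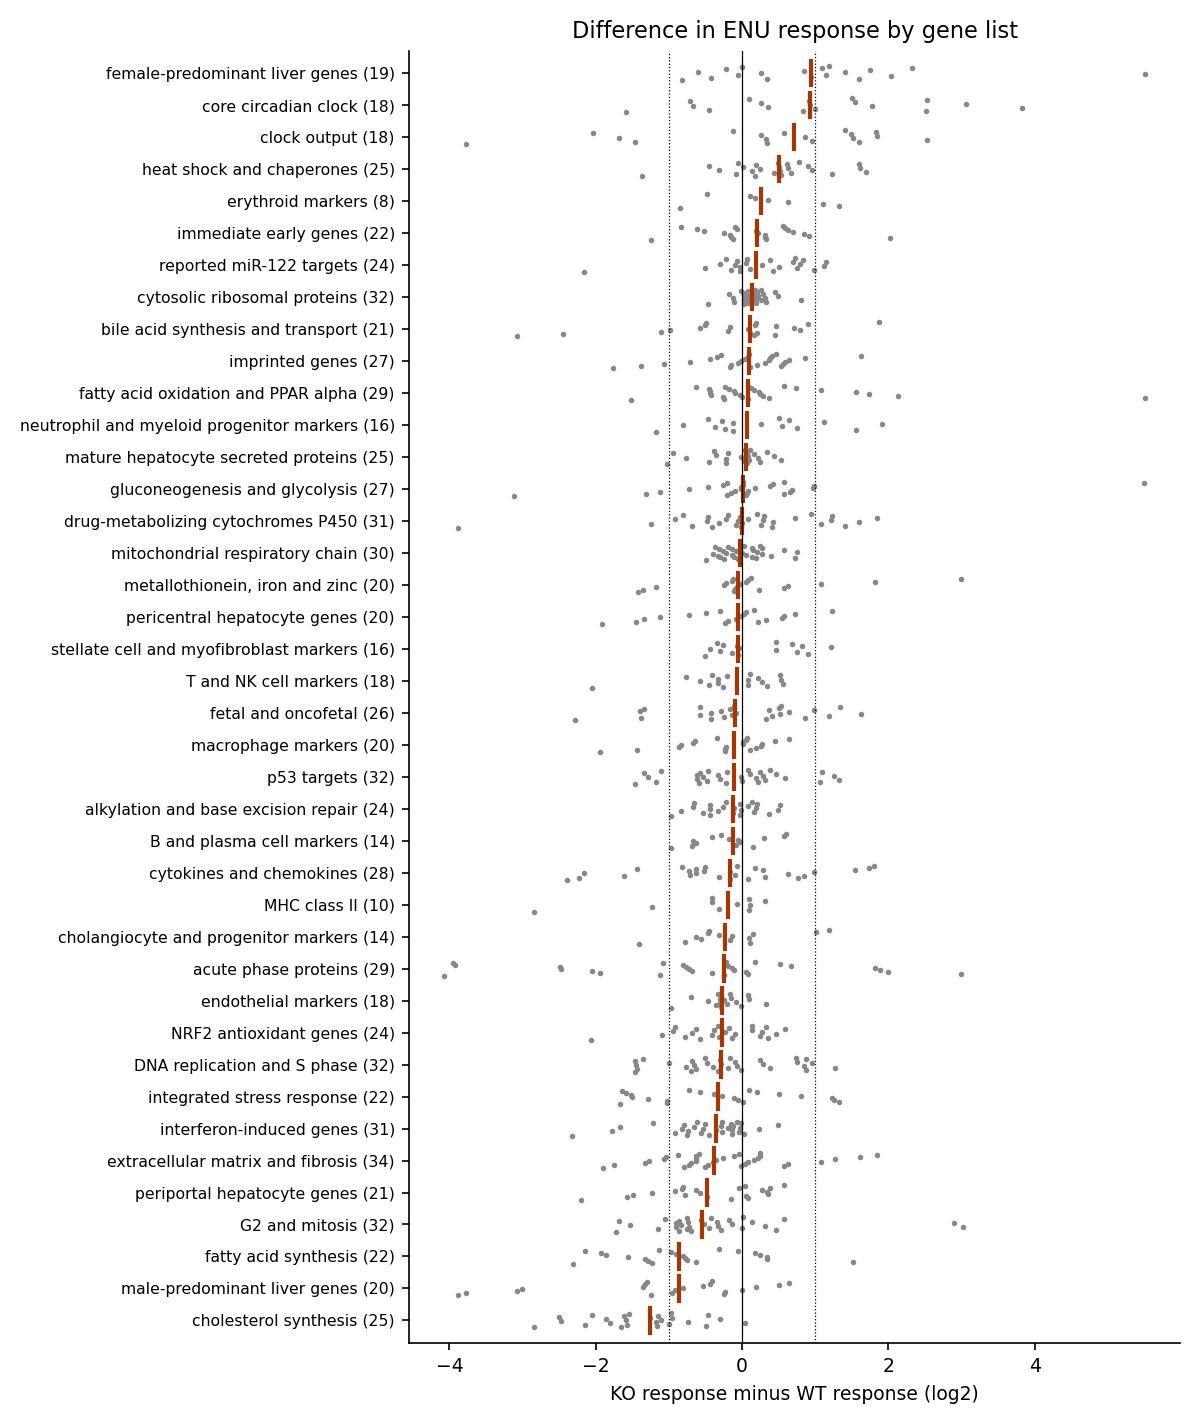
Difference in response (KO response minus WT response, log2, x axis) for each gene of the 40 lists, ordered by the median, with the number of genes measured in brackets. Grey points are genes and red bars list medians, the solid line marks no difference and the dotted lines 2-fold. Medians run from -1.25 for cholesterol synthesis at the bottom to 0.95 for female-predominant genes at the top.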

How the data were processed

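Liver RNA of 4 groups was hybridised to 8 one-colour Agilent arrays. The deposited intensity values are background-subtracted processed signals from Agilent Feature Extraction, version 10.7.1.1 per the file headers and 10.5.1 per the submitters' processing notes. Each array's 75th percentile over spots that are not controls was subtracted on the log2 scale, spots of a probe were averaged, and a gene was represented by its brightest probe that passed the filter. Of 41174 probes, 22951 were named by accession, 6659 by symbol and 3109 by synonym through RefSeq, and 8455 kept the file's name. Probe positions in the files are on mm7. The 2 arrays of a group were checked against repeated spots of a probe on 1 array, over 157 to 183 probes with at least 5 spots, and counted as 1 RNA sample. With 1 sample per group no p-value was computed, and the number of arrays limits the precision. Named genes were the 15 most positive and 15 most negative differences well above background on all arrays, up to 5 members per list by size, the 6 largest bounds per direction, the 10 largest opposite responses and Dicer1. Other members are named where a list is described. The members and gene lists were chosen with earlier results of these data known. Alternatives were normexp background correction with an offset of 50 (limma 3.58.1), quantile normalization, median centring, no filter, a filter on all arrays, all probes averaged, dim groups raised to the floor, and each array left out. The calculation was tested on simulated data of 18156 genes, with noise taken from the spread of arrays a and b. Of 200 genes given a known difference, 197 were called at 2-fold. Another 354 genes given no difference were called too, so array noise alone yields some of the calls. Versions were R 4.3.3, Python 3.11.15, numpy 2.4.6 and pandas 2.3.3. A few members are counted in their lists but are not reported here by name.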

Additional observations from a re-analysis of the deposited data

Results flagged for a closer look

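In 15 named genes, the group means of WT and KO moved at least 2-fold in opposite directions after ENU. Named genes were chosen partly for large opposite responses, so the count of 15 follows from that choice. Over all 18156 genes, such opposite responses occurred in 21 of the 789 positive calls and 29 of the 1173 negative calls. The opposite directions were not tested, since each group is 1 RNA sample. Well above background on all arrays, the difference in response was -4.30 for Prelid2, -3.05 for Prxl2b, -3.01 for Hsd3b5, -2.91 for Gnat1, -2.77 for Slpi, -2.69 for the unnamed probe A_52_P541760, -2.64 for AK033099, -2.57 for Bglap3 and -2.52 for Ubd. In these 9 WT was higher after ENU and KO lower. Slpi, a secreted protease inhibitor, had responses of 1.53 and -1.24, and Ubd, a ubiquitin-like protein induced by inflammation, 1.102 and -1.42. Krt23 at 2.79 and Tesmin at 2.41 went the other way. Among genes that were dim in a group, 4930597L12Rik at 4.09, Dio3os at 2.62, Padi4 at -5.84 and Pip at -5.42 were listed, and these measured values depend on signals near background. Pip also depended on 1 array, with -3.37 without WT ENU replicate a and -7.46 without replicate b. The value of 4930597L12Rik lay between 3.16 and 5.03 with each array left out. Under normexp Tesmin was at 1.29, Bglap3 at -1.70, AK033099 at -1.67 and A_52_P541760 at -1.22.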

How the results depend on the processing

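Counts of calls moved most with the treatment of low signals. The 2-fold counts of 789 more positive and 1173 more negative genes became 329 and 444 with normexp, 1661 and 2050 with no filter on dim probes, and 356 and 617 with only probes well above background on all 8 arrays. The 4-fold counts of 157 and 243 became 18 and 57, 399 and 451, and 32 and 94 under the same settings. With dim groups raised to the floor the 4-fold negative count was 145. Quantile normalization, median centring, all probes averaged and each array left out kept all 4 counts within 1.5 times. Of the 789 and 1173 genes, 301 and 435 were called with normexp too, and 717 and 1081 with quantile normalization. Of 150 named genes that were called, 133 stayed called with normexp, 146 with quantile normalization and 143 with all probes averaged, and all 150 kept their direction under these 3 settings. Why low signals moved the counts was not tested beyond these settings. No paired analysis was possible because the result comes from no test, with 1 RNA sample per group and replicate letters that mark arrays. Signal over background limits the size of differences for the 3612 genes that were dim on at least 1 array.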
